A study of Mus musculus with 1183 samples.

Results

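Mac V is a subtype among immune cells sorted from the distal lung of newborn mice. Its cells carry genes known from blood monocytes, many of which other subtypes carry too. Its members were the cells whose label for cell subtype was Mac V, 66 of 598 cells from 1 female animal and 45 of 585 from 1 male animal, out of 1183 cells in all. Both animals were at postnatal day 7 and had breathed excess oxygen (hyperoxia), which injures the growing lung. The labels give no strain, no genotype and no agent other than oxygen. Cells of the same 2 animals under 4 other labels were used for comparison, all at the same age and under the same treatment, and animals kept in normal oxygen were not analysed here. These were Mac II (27 female and 20 male cells), Mac III (390 cells), Mac IV (63 and 79) and neutrophil (56 and 78). By its title and design the series is about which immune cells shape what excess oxygen does to the newborn lung. Each sample was 1 sorted cell, sequenced from a plate with the Tn5 transposase, an enzyme that cuts cDNA and adds adapters in the same step. Of the Mac V cells, 110 lay on plates gated on CD45, the common leukocyte antigen, and 1 came from another gate.

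Monocytes are phagocytes that arise in the bone marrow and circulate in blood. Classical monocytes carry Ly6C and the chemokine receptor CCR2 and enter inflamed tissue, where they can become macrophages or dendritic cells. Nonclassical monocytes have little Ly6C, depend on the nuclear receptor NR4A1, carry CX3CR1 and patrol the inner wall of vessels, which are abundant in the lung.

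Mac V made up 11.04% of the female cells (66 of 598, exact Clopper-Pearson 95% interval 8.64 to 13.8%) and 7.69% of the male cells (45 of 585, 5.67 to 10.2%). On the CD45 plates the share was 12.5% and 9.54% (female) and 6.85% and 8.65% (male), so plates of the same animal differed about as much as the animals did. These are shares of sorted cells, and the intervals cover counting error only. The Mac V cells held 85727 to 5598442 reads each, with a median of 1056320 in the female and 1006750 in the male. Summed over cells, the Mac V libraries held 83672722 female and 46038255 male reads, and the 10 libraries of the 5 subtypes held 26507095 to 235566546. Levels are given in CPM, the usual scale of counts divided by the total of an animal's summed library, and a cell is said to have a gene at 10 or more reads. CPM takes no account of gene length, so levels were tested between groups of cells and not between genes. Where list members are ordered by CPM or summed below, the order or sum is not corrected for gene length. How the labels were made is not given, and expression in the very cells compared here may have set them. Differences between the subtypes therefore describe the labelled classes, and with 1 animal of each sex no difference between the sexes was tested.

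The 5 marker genes of Mac V were checked first. Plac8, which encodes a small cysteine-rich protein of myeloid cells, stood at 2691 CPM in the female and 3505 in the male, and 99.1% of the cells had it. Over single cells it ran from 0 through a median of 2633 to 7455 CPM in the female and from 167.9 through 2839 to 10489 in the male. The subtype next below was the basophil in both animals, at 1434 and 2200 CPM. Cybb, the catalytic subunit of the phagocyte NADPH oxidase, stood at 2024 and 2070 CPM, and all cells had it. Its lowest, median and highest cells were at 604, 1796 and 6126 CPM in the female and at 27.7, 2089 and 4800.1 in the male. Mac III was next, at 1321 and 1272 CPM.

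Nr4a1, the nuclear receptor on which nonclassical monocytes depend, stood at 2051 CPM in the female and 1208 in the male, in 98.2% of cells. Neutrophils were close behind, at 1342 and 1140 CPM. Ifitm6, of the interferon-induced transmembrane family, stood at 824 and 989 CPM, in 94.6% of cells, and again the neutrophils followed closely, at 692 and 880. Susd3, a membrane protein with a sushi domain, was the least widely shared marker, at 258.5 and 387.6 CPM in 68.5% of cells, with DC II next in the female (228.9 CPM) and Mac IV in the male (153.8). In CPM all 5 markers were thus highest in Mac V in both animals, the smallest margins being 1.06-fold for Nr4a1 and 1.12-fold for Ifitm6, both in the male. That order depended on the scaling. With CPM divided by TMM factors, which correct for a few abundant genes that take up much of a library, Ifitm6 was higher in neutrophils in both animals (Mac V at 0.841 and 0.896 times their level) and Nr4a1 in the male (0.845 times), while Plac8, Cybb and Susd3 stayed highest in Mac V in both. All 66 female and 45 male cells had at least 3 of the 5, and 40 of 66 female and 31 of 45 male cells had all 5. At least 3 markers were also found in 46.2% and 53.8% of B cells, 54.5% and 57.1% of DC II and 33.3% and 34.2% of Mac IV cells (female and male). For neutrophils the shares were 17.9% and 28.2%. None of the 390 Mac III cells had 3 or more, which allows a share of up to 0.769%. As a set the markers were thus most widespread in Mac V, while no marker was present in Mac V alone. Since expression in these cells may have set the label, this is no independent check of it.

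**Figure D1:**
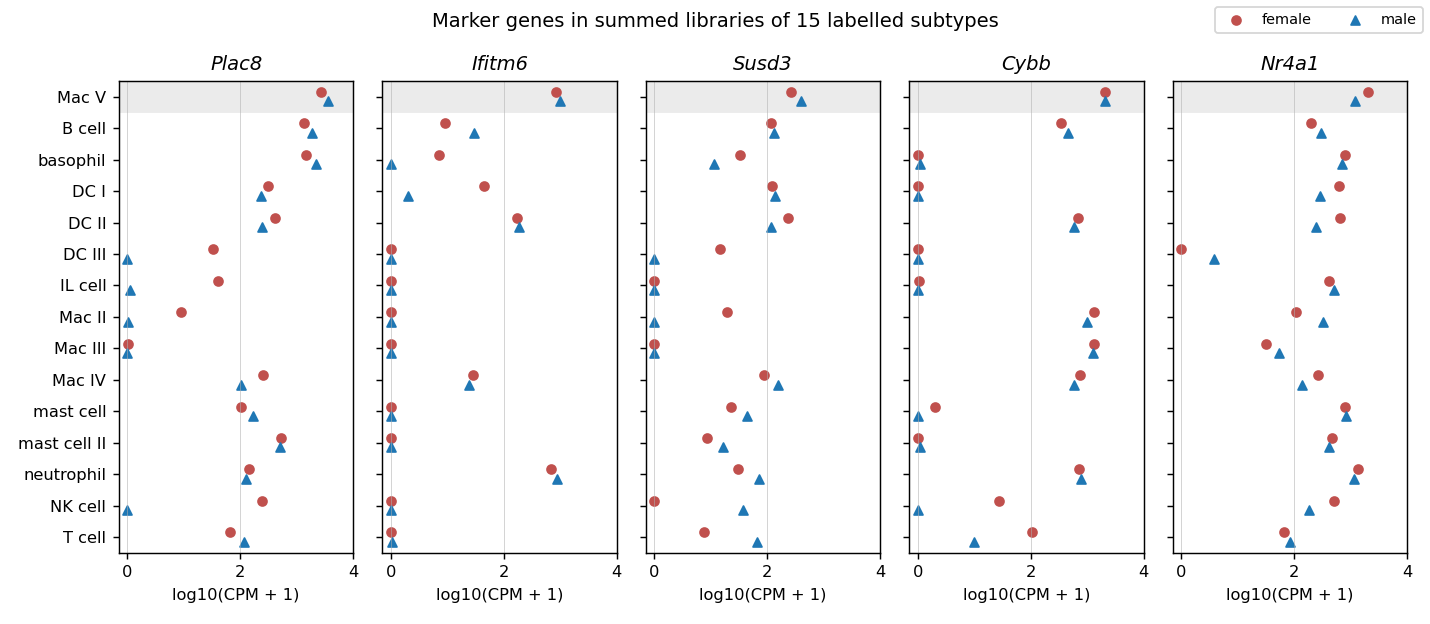
Summed level of the 5 marker genes, as log10(CPM + 1), in each of the 15 subtypes with at least 5 cells per animal, with the female animal as circles and the male as triangles. Mac V, on the shaded line, is highest for each marker in both animals on this scale, but basophils approach it for Plac8 and neutrophils for Ifitm6 and Nr4a1, and with TMM factors neutrophils lie above it for Ifitm6 in both animals and for Nr4a1 in the male.

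Across all 14599 genes tested, the Mac V library lay nearest to the other animal's Mac V library (Spearman rho 0.89). Within an animal its rho was 0.82 and 0.81 with Mac II (female and male), 0.81 and 0.79 with Mac III, 0.79 and 0.78 with Mac IV and 0.76 and 0.76 with DC II. The order was the same in both animals, and these correlations run across genes, which are not independent replicates.

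Including the markers, 0.577% of the genes with a read were highest in Mac V in both animals, with at least 50 CPM and with 10 or more reads in at least 50% of the cells of each. They were ranked by the smaller of the animals' ratios to the next subtype. This is a description of the class by the readout behind its label, and no test was made. First in the order was Adgre4, an adhesion receptor of the EMR family found on monocytes and macrophages, at 550 and 302.99 CPM. B cells were next, at 62.1 and 49.4 CPM, giving ratios of 8.85 and 6.13. Nxpe4 followed at 200 and 140 CPM, against 21.98 and 24.2 in Mac II. Zfyve9, whose product anchors SMAD proteins for signalling by TGF-β receptors, stood at 121.6 and 116.2 CPM, with ratios of 4.01 and 7.68.

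Several of these genes encode surface receptors and adhesion molecules. Ceacam1, an adhesion molecule with inhibitory motifs, stood at 693 and 614 CPM in 88.3% of cells, 3.03 and 4.08 times the next subtype. Clec4a1 stood at 548 and 367.1 CPM and Clec4a3 at 712 and 730, both C-type lectin receptors of the DCIR family and both with Mac IV next (213.8 and 160 CPM for Clec4a1, 436 and 367.3 for Clec4a3). Itgal, the α chain of the integrin LFA-1, stood at 1004 and 708 CPM against 551 and 408 in neutrophils. Klra2, a Ly49 lectin receptor, stood at 403 and 305.1 CPM against 238.7 and 196.4 in Mac II. Gpr141, an orphan receptor, stood at 189.3 and 180.05 CPM, and Tlr13, which senses bacterial ribosomal RNA, at 141.3 and 207.6.

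Others act inside the cell or are secreted. Ifitm3, which restricts the entry of viruses, stood at 2424 and 4441 CPM in all cells, against 968 and 1132 in DC II, with 10.02% of its 50-base windows shared with other transcripts. Pou2f2, the transcription factor OCT2, known from B cells and from nonclassical monocytes, stood at 473 and 404 CPM, and B cells were next at 264.4 and 200.7. C3, the central complement component, stood at 419 and 449 CPM against 250.5 and 201.6 in neutrophils. Stk10, a kinase of leukocyte migration, stood at 419 and 525 CPM. Rap1b, a small GTPase that activates integrins, stood at 1735 and 752 CPM, and Rap1gap2, which switches Rap1 off, at 147.1 and 156.7. Metrnl stood at 555 and 409 CPM, Ptpn1 at 753 and 759, Smpdl3a at 929 and 766, Rras at 204.4 and 220.6, Camkk2 at 170.9 and 199.1 and Serpinb10 at 189.8 and 194.9. With Plac8 and Cybb these are 24 of the first 25. Past the first few genes the margins were small, and most of the 25 were less than 2 times the next subtype in at least 1 animal. Over all genes highest in Mac V, the next subtype was the neutrophil for 36 (female) and 24 (male), 19 of them in both, and Mac II for 15 and 26, 9 of them in both. With CPM divided by TMM factors, a scaling added after the data were seen, 81 genes were highest in Mac V, 70 of them among those above and all of the first 25 among these.

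**Figure D2:**
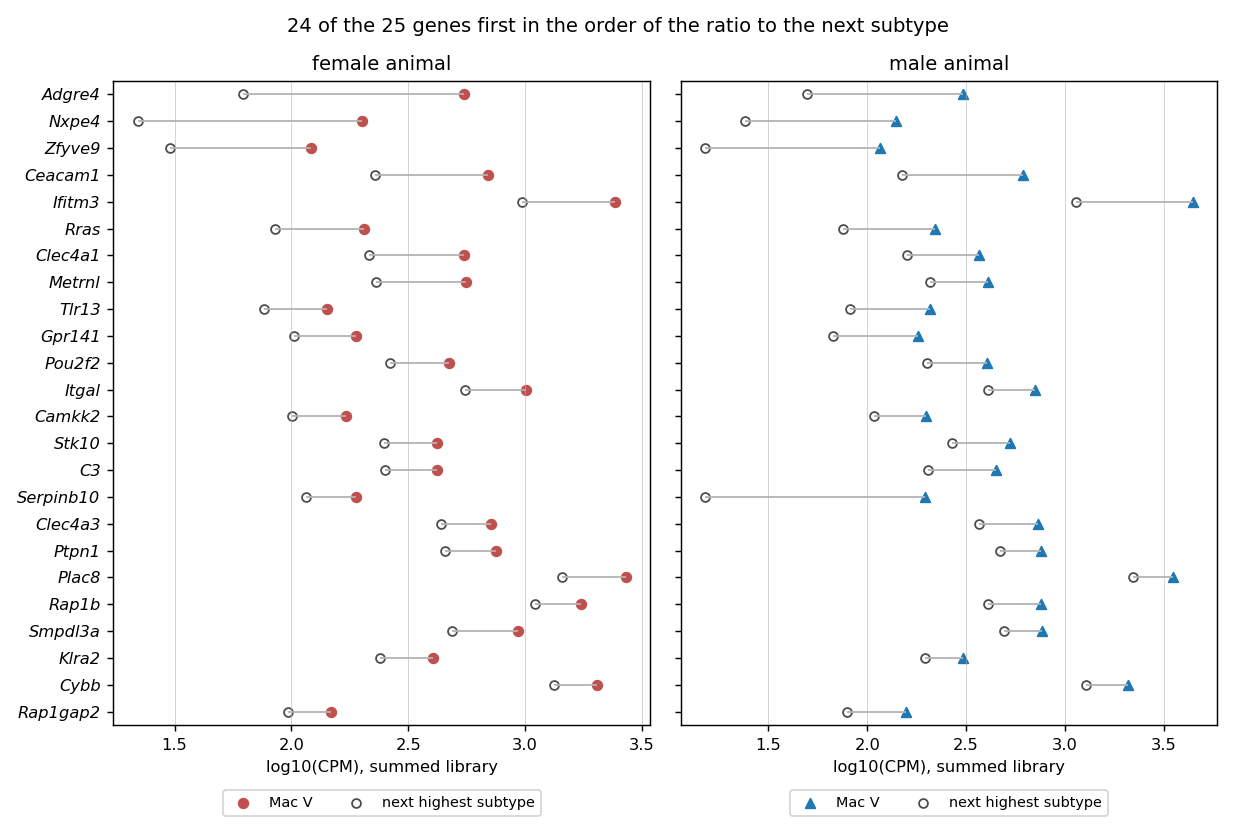
Level of 24 of the 25 first genes in Mac V (filled) and in the next highest of the other 14 subtypes (open), on a log10 scale of CPM, for the female and male animals. Adgre4 and Nxpe4 stand apart from the next subtype in both animals, whereas Cybb and Rap1gap2, at the foot, lie less than 2-fold above it.

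Mac V was not uniform. Ly6c2, the Ly6C antigen of classical monocytes, was found at 991 CPM in the female and 1666 in the male, in 30 of 66 and 25 of 45 cells. Its lowest, median and highest cells were at 0, 0 and 6124 CPM in the female and at 0, 821 and 5606 in the male. Ace, angiotensin-converting enzyme, which nonclassical monocytes carry, was found at 218.5 and 213.1 CPM, in 42 of 66 and 19 of 45 cells, with 0, 99.4 and 1873 CPM (female) and 0, 0 and 1800.4 (male) as the lowest, median and highest cells. In both animals the cells thus fell largely into those with either gene: 42 cells had Ly6c2 without Ace, 48 had Ace without Ly6c2, 13 had both and 8 neither. The counts were 20, 32, 10 and 4 in the female and 22, 16, 3 and 4 in the male. Across cells Ly6c2 and Ace had a Spearman rho of -0.61 over 66 female cells and -0.65 over 45 male cells. With cells thinned to 100000 reads the rho was -0.61 and -0.63, 5 of 110 cells had both and 16 neither. Depth went with both genes, with rho of 0.21 and 0.41 for Ly6c2 and -0.30 and -0.23 for Ace. Of the 50-base windows of Ly6c2, 14.4% occur in other transcripts, while none of the windows of Ace do. How reads in such windows were counted is not given, so the size of the error in the Ly6c2 counts is not known.

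Ly6c2 was nearly absent from the other macrophage labels: 0 of 47 Mac II, 1 of 390 Mac III, 1 of 63 female Mac IV and 2 of 79 male Mac IV cells had it. It was also found in neutrophils (14.3% of female and 24.4% of male cells), NK cells (2 of 5 and 4 of 7), T cells (7.69% and 25%), DC II (9.09% and 21.4%) and B cells (10.3% and 7.69%). Ace was found in 12.6% and 16.3% of Mac III, 7.41% and 20% of Mac II and 14.3% and 2.53% of Mac IV cells, at summed levels of 5.53 and 15.6, 14.4 and 7.24, and 7.77 and 3.03 CPM.

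**Figure D3:**
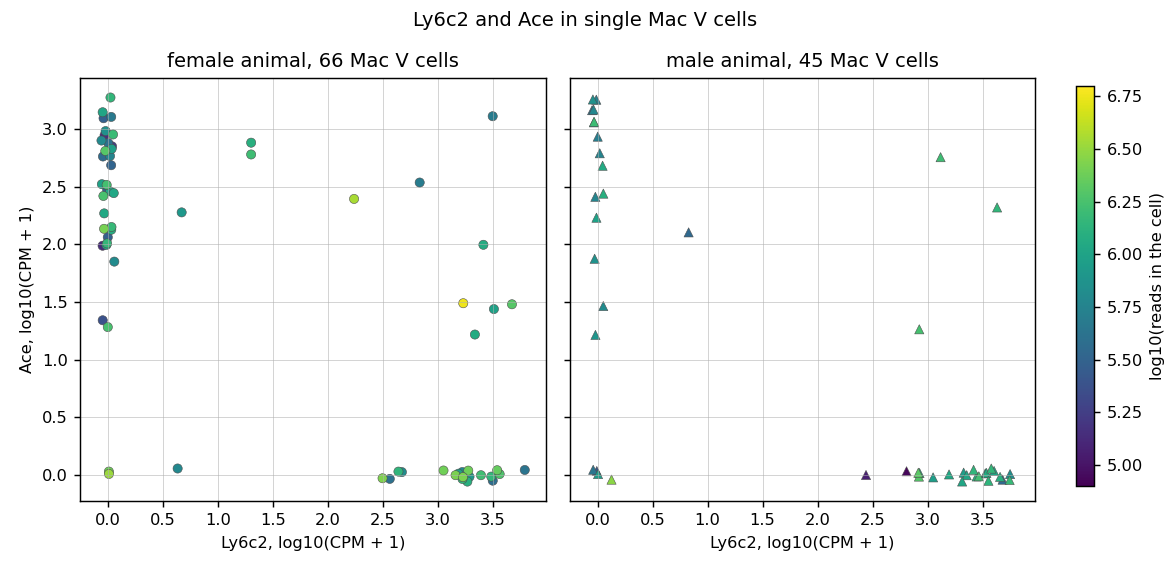
Ly6c2 against Ace in each Mac V cell, as log10(CPM + 1), for 66 female and 45 male cells, coloured by log10 of the reads in the cell, with points at 0 shifted slightly so that they can be seen. Most cells lie along the axis of one gene, and 10 female and 3 male cells had 10 or more reads of both.

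The 8 genes whose levels ran most closely with Ly6c2 over cells were sought among 3983 genes found in at least 20% of the Mac V cells of each animal. Of these 8 only Fn1, Ccr2 and F13a1 are in the list of classical monocyte genes used below. Fn1, fibronectin, came first, with rho of 0.80 in the female and 0.81 in the male. It stood at 1085 and 1686 CPM, and its single cells ran from 0 through 37.3 to 6295 CPM in the female and from 0 through 673 to 6322 in the male. Ccr2, the receptor for CCL2 by which monocytes leave the marrow, followed with 0.67 and 0.74. The others were Lyz2, lysozyme (0.66 and 0.71), Tmsb10, an actin-binding thymosin (0.61 and 0.69), Wfdc17 (0.64 and 0.61), F13a1, the A chain of coagulation factor XIII (0.59 and 0.71), Capg, which caps actin filaments (0.58 and 0.70), and Fos (0.60 and 0.57). All 8 ran against Ace in both animals, from -0.68 for F13a1 to -0.47 for Capg in the female and from -0.71 for Fn1 to -0.48 for Tmsb10 in the male. Lyz2 shares 15.4% of its windows with other transcripts. Ccr2 and Fn1 were not particular to Mac V. Ccr2, at 572 and 893 CPM in Mac V, was found in 100% and 94.7% of basophils (1243 and 841 CPM). It was also found in 70.4% and 80% of Mac II cells (631 and 399 CPM) and in most cells of DC I and DC II. Fn1 stood at 1905 and 1709 CPM in Mac II, in 100% and 95% of cells.

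The genes nearest to Ace were Bcl2a1a (rho 0.68 and 0.73) and Bcl2a1d (0.65 and 0.67), both of the A1 family that protects cells from apoptosis. These are near-identical copies, with 68.96% and 79.5% of windows shared, so the reads of the family cannot be divided between them. Next came Gngt2, a G protein γ subunit (0.64 and 0.68), Slc12a2, a sodium, potassium and chloride transporter (0.63 and 0.74), Treml4, a receptor of the TREM family (0.68 and 0.63), Dusp16, a phosphatase of MAP kinases (0.70 and 0.62), Lair1, an inhibitory collagen receptor (0.62 and 0.65), and Eno3, an enolase of glycolysis (0.63 and 0.60). Each of the 8 ran against Ly6c2 in both animals, from -0.59 for Bcl2a1a and Gngt2 in the female to -0.74 for Gngt2 in the male. After thinning, the lowest rho with Ace among the 8 was 0.53, that of Dusp16 in the male. Treml4, at 616 and 336.6 CPM in Mac V, was also found in 55.6% and 60% of Mac II cells (female and male), at 73.2 and 107.2 CPM. Since cells share their animal, their plates and their depth, these correlations are descriptions.

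The lists of monocyte genes divided in the same way. This is no separate check, since the lists were chosen with earlier results of these data known. Fn1, Ccr2, F13a1, Treml4 and Eno3 are also among the nearest genes given above. All 11 other nonclassical genes ran with Ace and against Ly6c2 in both animals, among them Adgre4 (rho with Ace 0.57 and 0.69), Pou2f2 (0.56 and 0.55), Spn, the sialoglycoprotein CD43 (0.44 and 0.63), Ear2, a ribonuclease (0.58 and 0.63), and Cx3cr1, the fractalkine receptor (0.39 and 0.27). The 7 classical genes wide enough to be followed, Fn1, Ccr2, F13a1, Ms4a4c, Mgst1, S100a4 and Hp, ran the other way, from Fn1 down to Hp, haptoglobin (rho with Ly6c2 0.42 and 0.19). Ccr2 and Cx3cr1 separated less cleanly than Ly6c2 and Ace, with both in 44 cells, Ccr2 alone in 23, Cx3cr1 alone in 38 and neither in 6. Chil3, a chitinase-like protein of classical monocytes, was found in 1 Mac V cell.

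Of the Mac V markers, Nr4a1 followed the nonclassical side, with rho of -0.33 and -0.52 with Ly6c2 and 0.26 and 0.52 with Ace. All 30 female and 23 of 25 male cells with Ly6c2 nevertheless had Nr4a1. Plac8 (0.21 and 0.00 with Ly6c2) and Cybb (-0.07 and 0.10) were nearly even along the axis, and Ifitm6 and Susd3 had opposite signs in the animals. Among listed genes outside these groups, H2-DMa, which edits the peptides loaded on MHC class II, ran with Ly6c2 (0.47 and 0.38), and so did Bst2, tetherin (0.46 and 0.19), and Oasl2 (0.41 and 0.24). After thinning the rho was 0.44 and 0.36 for H2-DMa, 0.49 and 0.16 for Bst2 and 0.40 and 0.16 for Oasl2. In the male these genes also ran with depth (0.50, 0.40 and 0.38), in the female hardly (0.10, -0.03 and 0.03).

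**Figure D4:**
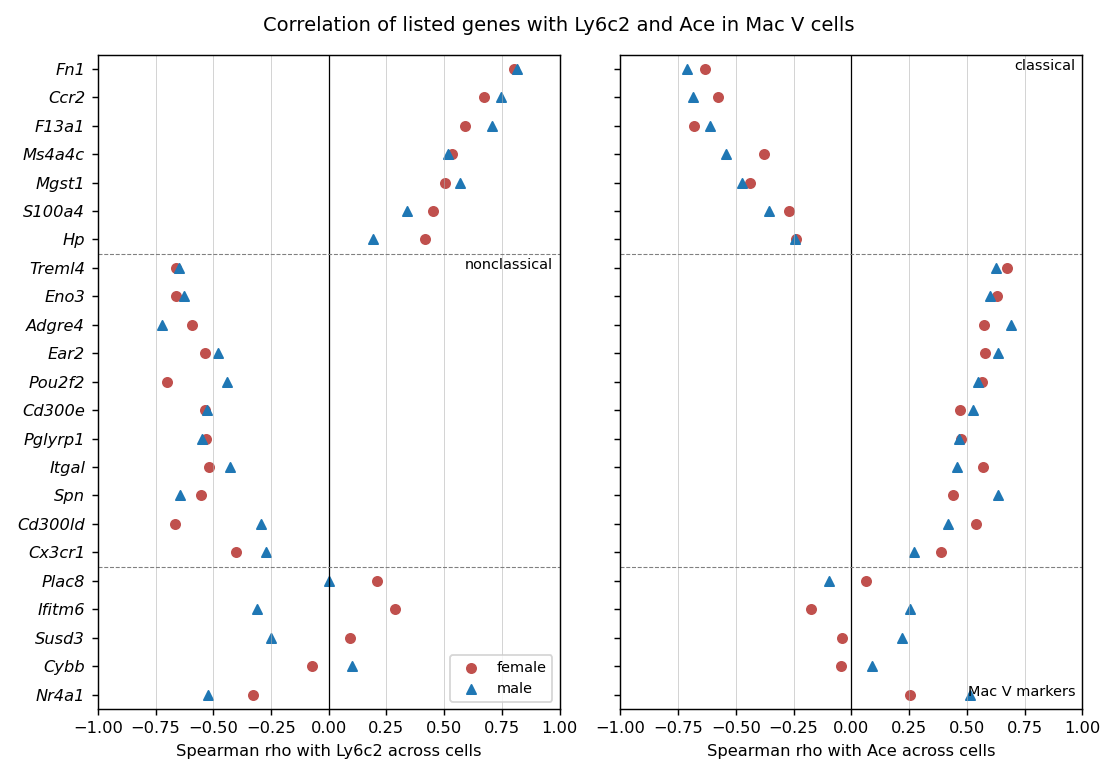
Spearman rho of listed genes with Ly6c2 (left) and Ace (right) across Mac V cells, circles for 66 female and triangles for 45 male cells. Classical genes lie to the right of 0 with Ly6c2 and to the left with Ace, the 11 nonclassical genes the reverse, and the markers other than Nr4a1 lie near 0 or change sign.

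The stretches before the start sites of Ly6c2 and Ace are shown because these genes mark the ends of that axis. They are 250 bases from RefSeq on GRCm38.p6, read on each gene's strand, Ly6c2 at chr15:75111972-75112221 on the minus strand and Ace at chr11:105967698-105967947 on the plus strand. Capitals mark matches, on either strand, to GAGGAAGT, the letters used for the monocyte factor PU.1, in Ly6c2, and to CCNCNCCC, those used for KLF factors, in Ace.
Ly6c2: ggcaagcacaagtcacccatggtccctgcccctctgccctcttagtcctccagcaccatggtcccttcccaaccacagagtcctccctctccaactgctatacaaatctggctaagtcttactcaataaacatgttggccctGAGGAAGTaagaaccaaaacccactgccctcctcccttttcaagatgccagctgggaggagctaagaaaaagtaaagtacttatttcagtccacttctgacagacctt
Ace: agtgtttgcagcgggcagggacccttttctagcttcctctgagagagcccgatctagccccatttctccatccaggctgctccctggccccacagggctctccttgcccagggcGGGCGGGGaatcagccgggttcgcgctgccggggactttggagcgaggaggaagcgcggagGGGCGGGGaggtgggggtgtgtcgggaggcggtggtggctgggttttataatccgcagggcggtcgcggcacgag
The PU.1 match in Ly6c2 begins at base -108, and another lies beyond the start at base 27. The KLF matches in Ace begin at bases -136 and -75. Over 27025 RefSeq promoters of 300 bases, 250 before and 50 after the start, 3.28% held the PU.1 letters, 49.1% the KLF letters, 1.46% AAAGGTCA for NR4A and 10.8% TTGCNNAA for C/EBP, each searched on both strands. Of the 8 promoters found for Ly6c2 and the genes nearest to it, 1 held PU.1 letters, 4 KLF letters and none the others. Of the 7 found for Ace and its nearest genes, 2 held PU.1, 2 KLF, 1 C/EBP and none NR4A letters. The promoters of the 5 markers held KLF letters in 4 cases and none of the others. These are matches of letters in a window, and binding was not measured.

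Mac V was then compared with 3 labelled subtypes. Counts summed per animal and subtype were tested with edgeR's quasi-likelihood test on the 10 libraries of the 5 subtypes, and a gene was called where its p, adjusted by Benjamini and Hochberg over 14599 genes, was under 0.05. In what follows values are given for the female and then the male library, and adjusted p is edgeR's. With 2 animals the spread is that between these 2 libraries of each subtype, and the common biological coefficient of variation of 0.954 was wide. Calls are said to hold where they did so without each of the 4 libraries of a comparison in turn; with all 15 subtypes in the fit far fewer genes were called, 0.115%, 0.167% and 0.404% of those tested against Mac II, Mac IV and neutrophils, and of 52, 69 and 78 genes named or listed here 4, 8 and 11 stayed called under every alternative. The smallest called log2 change was 1.27 against Mac II, 1.10 against Mac IV and 1.17 against neutrophils.

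Against Mac II, the label nearest to it, Mac V had Ifitm6, Ly6c2, haptoglobin and the stefin Stfa1 where Mac II had almost no read, and had 4 reads or fewer of C1qa, the metallothionein Mt2 and the endocytic adaptor Dab2. Some of these rest on few cells: Stfa1 was found in 10.8% of Mac V cells, and C1qa in 17.02% and Mt2 in 27.7% of Mac II cells. In all, 84 genes were higher in Mac V, 0.575% of those tested, and 0.712% were lower. The median log2 change over all genes was 0.00. Of the 5 markers, Ifitm6 and Plac8 were higher and none lower (median 5.22); Plac8 stood at 2691 and 3505 CPM against 7.95 and 0.0377 (log2 change 9.65 ± 1.76, adjusted p = 0.0384), a call lost without either Mac V library (0.0998 and 0.121). Ifitm6 stood at 824 and 989 CPM in Mac V and had no read in Mac II, at least 20677-fold higher (adjusted p = 0.000415). Rcsd1, which binds actin-capping protein, stood at 165.1 and 137.5 CPM with no read in Mac II, at least 3638-fold higher (adjusted p = 0.00101). Hp stood at 1098 and 1047 CPM against 0.274 and 0, a log2 change of 12.81 ± 1.62 (adjusted p = 0.00676). Throughout, the value after ± is the size of the log2 change divided by the square root of the test's F statistic. It restates the test and is no separate measure of spread. The calls of Ifitm6, Rcsd1 and Hp held without each of the 4 libraries in turn.

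Stfa1, a cysteine protease inhibitor of the stefin A cluster, was at least 1392-fold higher (22.5% of windows shared), and Sgms2, a sphingomyelin synthase, stood at 101.3 and 69.2 CPM against 1 read in Mac II (adjusted p = 0.000802). Ly6c2 had 1 read in Mac II (adjusted p = 0.0227), Mapk13, the kinase p38δ, none (at least 1344-fold higher, adjusted p = 0.0195), and Eno3 had 4 reads (log2 change 12.82 ± 2.41, adjusted p = 0.0422). The calls of Ly6c2, Mapk13 and Eno3 were lost without any 1 of the 4 libraries (adjusted p 0.0574 to 0.157, 0.0585 to 0.113 and 0.117 to 0.222), and that of Eno3 with the animal as replicate block (adjusted p = 0.0811).

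Lower in Mac V was C1qa, a chain of the complement component C1q made by tissue macrophages, with no read in Mac V against 204.2 and 122.4 CPM in Mac II, at least 7495-fold lower (adjusted p = 0.000415). Mt2, a metal-binding metallothionein, was at least 3436-fold lower (90.5 and 61.2 CPM in Mac II). Pald1 had 2 reads in Mac V against 227.4 and 260.99 CPM, and Siglecf, a sialic acid lectin of alveolar macrophages and eosinophils, 1 read against 146.03 and 85.98. Kazald1 and Pmepa1, an inhibitor of TGF-β signalling, had 1 read each. The calls of these 6 genes held without each library in turn. Dab2 had 4 reads in Mac V against 441 and 523 CPM (log2 change -13.85 ± 1.49, adjusted p = 0.00342), and Perp, a membrane protein of p53-dependent death, 1 read. Dab2 and Perp lost their calls without either Mac V library (adjusted p 0.0509 and 0.0504 for Dab2, 0.0799 and 0.0918 for Perp).

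Against Mac IV, Mac V had no read of C1qa or of the CC chemokines Ccl7 and Ccl12, although it had others such as Ccl6 and Ccl9, and Nr4a1, Cybb and Ifitm6 were higher. Of the genes tested 401 were called, 1.8% higher in Mac V and 0.945% lower, with a median log2 change of -0.07 over all genes. Of the calls 65.6% were higher, against 36.8% with DESeq2, which gave 953 higher and 1637 lower. Of the 5 markers Cybb, Ifitm6 and Nr4a1 were higher and none lower (median 3.16), while Plac8 stood at 246.5 and 101.2 CPM in Mac IV (log2 change 4.27 ± 1.39, adjusted p = 0.140). C1qa stood at 3916 and 5218 CPM in Mac IV and had no read in Mac V, at least 200427-fold lower (adjusted p = 0.000179). The chemokines Ccl7 (547.5 and 1692.5 CPM in Mac IV) and Ccl12 (603 and 1319.6), which draw CCR2-bearing monocytes, had no read in Mac V, at least 51023-fold and 43191-fold lower. Fcna, ficolin A, a lectin of the complement system, was at least 32167-fold lower, and Cxcl16, a membrane-bound chemokine, at least 19401-fold lower. These 5 calls held without each library in turn.

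Pf4, platelet factor 4, which some tissue macrophages also make, had 1 read in Mac V against 4729 and 8575 CPM in Mac IV (adjusted p = 0.0110), a call lost without either Mac V library (0.0994 and 0.109). Folr2, a folate receptor of resident macrophages, was at least 3866-fold lower (adjusted p = 0.0302), lost without any 1 of the 4 libraries (0.0967 to 0.196) and with the replicate block (0.0839). Retnla, a resistin-like protein, had no read in Mac V, but 95.5% of its Mac IV reads came from 1 cell, and its call was lost without either Mac V library or the male Mac IV library (up to 0.260) and with the replicate block (0.0916).

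Of the genes higher than in Mac IV, those with the largest changes follow. Stfa1, found in 10.8% of Mac V cells, stood at 44.2 and 87.01 CPM against 3 reads (adjusted p = 0.000564), Mirt1, a noncoding RNA, at 100.75 and 70.9 CPM against 0.283 and 0.187 (log2 change 8.61 ± 0.91, adjusted p = 0.00227), and Sgms2 rose by 7.74 ± 0.76 on the log2 scale (adjusted p = 0.00151). These 3 calls held without each library in turn. Spn stood at 206.9 and 218.1 CPM against 3.53 and 1.20 (log2 change 6.60 ± 1.03, adjusted p = 0.0133), lost without any 1 of the 4 libraries (0.0547 to 0.113). Pi16, a peptidase inhibitor, rose by 9.41 ± 1.60, lost in 3 of 4 cases (adjusted p up to 0.0621), and Trem1, a receptor that amplifies inflammation, by 6.19 ± 0.82, lost without the male Mac IV library (0.0730). Hp rose by 6.30 ± 1.23, although 88.1% of its Mac IV reads lay in 1 cell, and was lost in 3 of 4 cases (up to 0.101). Slpi, a protease inhibitor with no read in Mac IV, was at least 12474-fold higher, with 40.8% of its Mac V reads in 1 cell, and was lost in all 4 (0.0609 to 0.120).

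Against neutrophils, the granule proteins Ltf and Camp were lower in Mac V, and the receptors Fcgr1 and Ccr2 were higher. Of the genes tested 654 were called, 2.62% higher in Mac V and 1.86% lower, with a median log2 change of 0.00 over all genes. Of the calls 58.4% were higher, against 43.9% with DESeq2, which gave 1576 higher and 2012 lower. None of the 5 markers was called (median 1.02): the log2 change was 4.10 ± 1.38 for Plac8 (adjusted p = 0.126), 2.31 ± 1.59 for Susd3 (0.401), 1.02 ± 0.25 for Cybb (0.0560), -0.05 ± 0.56 for Nr4a1 (0.978) and -0.22 ± 0.44 for Ifitm6 (0.806). Fcgr1, the high-affinity IgG receptor, stood at 126.8 and 149.9 CPM in Mac V and had 2 reads in neutrophils (adjusted p = 6.23e-05). Ccr2 stood at 572 and 893 CPM against 2 reads (adjusted p = 0.000209), and F13a1 at 215.8 and 260.4 CPM against 2 reads (adjusted p = 0.0132). Mcub, a subunit of the mitochondrial calcium uniporter, was at least 3811-fold higher, Phf11b at least 3884-fold (47.05% of windows shared), Ms4a4a, a tetraspan protein, at least 3128-fold, and Fkbp1b at least 1435-fold. Cfb, complement factor B, stood at 130 and 48.3 CPM against 1 read (adjusted p = 0.0120). All 8 calls held without each library in turn. Several rest on part of the Mac V cells: Cfb was found in 17.1%, with 33.7% of its reads in 1 cell, and Fkbp1b in 19.8%. Ms4a4a was found in 25.2% and Phf11b in 30.6%.

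Lower in Mac V was Ltf, lactoferrin of the secondary granules, with no read against 5816 and 4923 CPM in neutrophils, at least 230066-fold lower (adjusted p = 0.00272), in 16.4% of the neutrophils. Camp, the cathelicidin precursor, had 4 reads in Mac V against 4342 and 5058 CPM (log2 change -17.49 ± 1.92, adjusted p = 0.00268), and Retnlg had 1 read (adjusted p = 0.000206). Asprv1 was at least 35323-fold and Itgb2l, a β2-like integrin chain of granulocytes, at least 11483-fold lower, and Olfm4 had 1 read. These 6 calls held without each library in turn. Foxd4 and Rdh12, a retinol dehydrogenase, were at least 4451-fold and 4058-fold lower and lost their calls without either Mac V library (up to 0.0567 and 0.0876). Camp was found in 17.9% of neutrophils, Retnlg in 52.2%, Asprv1 in 67.2%, Itgb2l in 23.1%, Olfm4 in 29.9%, Foxd4 in 25.4% and Rdh12 in 14.2%.

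In the lists of genes grouped by role, all members were counted, and the members named below as called were named after their values were seen. The counts are to be read against the shares of all tested genes called higher and lower, 0.575% and 0.712% against Mac II, 1.8% and 0.945% against Mac IV and 2.62% and 1.86% against neutrophils. Where a list's call was lost in some library's absence, its highest adjusted p is given. The list medians below are of fitted log2 changes and moved little when genes with no read in 1 subtype were set at their lower bound, unless the second value is printed.

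The 12 classical genes were called higher against Mac II in 3 cases (among them Hp and Ly6c2, median log2 change 7.96, or 7.87 with bounds) and against Mac IV in 5 (among them Ccr2, Cd177, Hp and Mgst1, median 3.06). Against neutrophils 4 were higher (Ccr2, F13a1, Fn1 and Vcan) and 2 lower (Cd177 among them), with a median of 3.64. The level of Cd177 rests on few cells, as 62 of 66 female and 44 of 45 male Mac V cells had no read of it. Summed, the 12 genes stood at 5100 and 7133 CPM in Mac V, 5590 and 4996 in neutrophils and 2895 and 2616 in Mac II. Of the 12, 3 were highest in Mac V in both animals. Fn1, at 1085 and 1686 CPM, was 10.13 ± 0.95 higher on the log2 scale than in neutrophils (adjusted p = 0.00118) and differed by -0.33 from Mac II, where it stood at 1905 and 1709 CPM (0.894). Calls of Ccr2, F13a1 and Fn1 against neutrophils and of Hp against Mac II held without each library in turn. Those of Ccr2, Cd177, Hp and Mgst1 against Mac IV were lost in at least 1 case (adjusted p up to 0.220), and those of Ccr2 there (0.0641) and of Vcan against neutrophils (0.0723) also with the replicate block.

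The 12 nonclassical genes had medians of 3.17, 5.03 and 2.98 against Mac II, Mac IV and neutrophils. Summed, they stood at 6256 and 4252 CPM in Mac V, 4756 and 4779 in neutrophils and 3477 and 3603 in Mac II. Of the 12, 6 were highest in Mac V in both animals. Eno3 and Pou2f2 were higher and Ear2 lower than in Mac II, Adgre4, Ear2, Itgal, Pou2f2 and Spn higher than in Mac IV, and Adgre4, Ear2 and Pou2f2 higher than in neutrophils. Pou2f2, at 473 and 404 CPM, was called in all 3 comparisons, by 2.94, 2.74 and 2.54 on the log2 scale (adjusted p = 0.0406, 0.0346 and 0.0345), each lost without some library (up to 0.213). Ear2, at 869 and 722 CPM, was 5.02 ± 0.31 higher on the log2 scale than in Mac IV (adjusted p = 0.000415) and 2.87 ± 0.28 higher than in neutrophils (0.00133), and both calls held without each library in turn. It was -1.70 ± 0.27 relative to Mac II (0.0202), which held 2526 and 2815 CPM, a call lost without any 1 of the 4 libraries (up to 0.148). Ear2 shares 41.5% of its windows with other transcripts of its family. Itgal was 4.37 ± 0.52 higher on the log2 scale than in Mac IV (adjusted p = 0.00378) and held without each library in turn. Ace was not called against Mac II (log2 change 4.37 ± 1.30, adjusted p = 0.165). In a summed library fewer cells with a gene and less RNA per cell cannot be told apart, and both monocyte lists rest on part of the Mac V cells.

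Among 18 transcription factors of the myeloid lineages, Spi1, which encodes PU.1, stood at 860 and 917 CPM and Cebpb at 744 and 847, each in 99.1% of cells. Klf2, a factor of quiescent leukocytes, stood at 709 and 511 CPM against 34.8 and 8.601 in Mac II, a log2 change of 4.87 ± 0.65 (adjusted p = 0.00865) that held without each library in turn. Nr4a1 was 3.16 ± 0.61 higher on the log2 scale than in Mac IV (adjusted p = 0.0317). Klf2, Pou2f2 and Runx3 were higher than in Mac II, and Cebpb, Klf4, Nr4a1 and Pou2f2 higher and Maf, a factor of resident macrophages, lower than in Mac IV. Against neutrophils Irf8, Klf4, Maf, Pou2f2 and Pparg were higher and Cebpd lower. The list medians were 0.80, 1.02 and 0.81. All these calls other than that of Klf2 against Mac II were lost in at least 1 library's absence (adjusted p up to 0.213), and those of Nr4a1 against Mac IV (0.0536) and of Irf8 and Maf against neutrophils (0.0676 and 0.0560) with the replicate block.

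Of 22 genes of adhesion and migration 8 were higher than in Mac IV and none lower (median 2.13), where 1.8% and 0.945% of all genes were called. Against Mac II, 6 were higher and 1 lower (median 1.72, all genes 0.575% and 0.712%), and against neutrophils 2 higher and 2 lower (median -0.34, all genes 2.62% and 1.86%). Coro1a, coronin 1A of the actin cortex, stood at 3163 and 2764 CPM, Adgre5, CD97, at 1646 and 982, and Cd44, the hyaluronan receptor, at 1415 and 1452. Itga4, the α4 integrin chain that binds VCAM1, stood at 1266 and 1153 CPM in all cells and was called in each comparison. It was higher by 2.38 ± 0.32, 3.63 ± 0.34 and 1.48 ± 0.31 on the log2 scale (adjusted p = 0.00929, 0.00136 and 0.0339), and only the call against Mac IV held without each library in turn (the others up to 0.0743 and 0.130). Myo1g, a class I myosin of leukocytes, was higher by 1.93, 4.47 and 1.58. Fyb, an adaptor of integrin activation, and Adgre5 were higher than in Mac II and Mac IV, Itgam, the CD11b chain, higher than in Mac II, and Coro1a and Cyfip2 higher than in Mac IV. Itgax, the CD11c chain, was lower than in Mac II, by -4.04 ± 0.48 (adjusted p = 0.00492), and Rac2 lower than in neutrophils, by -1.69 ± 0.25 (0.00904). Itga4, Itgal and Myo1g against Mac IV held without each library in turn, and the other calls named here were lost in at least 1 library's absence (adjusted p up to 0.207).

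Of 24 receptors for chemokines, growth factors and cytokines, 23 were tested. Csf1r, the receptor for the growth factor CSF1 on which monocytes and macrophages depend, stood at 1643 and 1265 CPM in 99.1% of cells, 2.14 ± 0.39 higher on the log2 scale than in neutrophils (309.5 and 168.5 CPM, adjusted p = 0.0196), a call lost without either Mac V library (0.0827 and 0.0503). Ifngr1, the interferon-γ receptor, stood at 1067 and 776 CPM. Il17ra, the receptor for interleukin 17, stood at 566 and 449.5 CPM against 33.3 and 21.9 in Mac IV, a log2 change of 4.31 ± 0.38 (adjusted p = 0.00125) that held without each library in turn. Csf3r, the receptor for G-CSF, lay between, higher than in Mac II and lower than in neutrophils, and so did Cxcr2, in 5.41% of Mac V cells. Ccr1 was lower than in Mac IV and neutrophils, and Ifnar2 higher than in Mac II. The counts were 3 higher and none lower against Mac II (median 0.49), 3 and 1 against Mac IV (0.98) and 2 and 3 against neutrophils (-0.06), and Ccr1, Csf3r and Ifnar2 lost their calls in at least 1 case (up to 0.189).

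The phagocyte NADPH oxidase, which makes superoxide, was present with all of its listed subunits. Cybb and Cyba, its membrane-bound pair, stood at 2024 and 2070 and at 1899 and 2153 CPM in all cells. Of the cytosolic subunits Ncf1 stood at 354.4 and 191.8 CPM and Ncf4 at 690.2 and 627, and Rac2, the GTPase that switches it on, at 1054 and 1151. None of the 6 was called against Mac II (median 0.61). Of the 6, 3 were higher on the log2 scale than in Mac IV (median 1.36), among them Cybb (1.72 ± 0.25, adjusted p = 0.0103) and Ncf4 (1.81 ± 0.37, 0.0372), and Rac2 alone was lower than in neutrophils (median -0.67). The calls of Cybb, Ncf4 and Rac2 were lost without at least 1 library (adjusted p 0.0715, 0.186 and 0.0581 at the highest).

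Of 22 antioxidant genes, Gpx1, a glutathione peroxidase, stood at 3190.3 and 4625 CPM, the ferritin chains Ftl1 at 3567 and 4254 and Fth1 at 3189.2 and 3436.7, and Prdx5, a peroxiredoxin, at 1223 and 1828. Fth1 was lower than in Mac II, at 12494 and 16797 CPM there (log2 change -2.10 ± 0.27, adjusted p = 0.00727), and Fth1, Ftl1, Gclm, Hmox1, which breaks down heme, and Mt2 were lower than in Mac IV, where Mgst1 and Prdx5 were higher. Prdx1 was higher and Slc7a11, the cystine importer, lower than in neutrophils. The medians were -0.26, -0.40 and 0.07 (0.15 with bounds). Mt2 was also lower than in Mac II. The Mt2 calls held without each library in turn, and the others did not (up to 0.253).

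The 24 interferon-induced genes had a median against Mac II of 4.25 (4.401 with bounds) against 0.00 over all genes, though only 4 were called: Ifi204, Ifitm2, Ifitm3 and Ifitm6. Ifitm3 stood at 2424 and 4441 CPM against 6.38 and 0.490 in Mac II, where 95.5% of its reads lay in 1 cell. Its call (10.01 ± 1.77, adjusted p = 0.0347) was lost without any 1 of the 4 libraries (0.0676 to 0.138) and with the replicate block (0.0660). Ifitm2, with 48.5% of windows shared, was 4.10 ± 0.42 higher on the log2 scale (adjusted p = 0.00289) and held without each library in turn. Against Mac IV only Ifitm6 was called (5.27 ± 0.53, adjusted p = 0.00324, list median 1.01), and against neutrophils Ifi205, Ifit2, Ifit3 and Ly6e (median 0.59). These last 4 were lost in at least 1 case (up to 0.116), Ifit2 and Ifit3 also with the replicate block (0.0531 and 0.0728), and 66.5% of the Ifit2 reads of Mac V lay in 1 cell. The well known target Isg15 stood at 3.08 and 9.27 CPM in 8.11% of cells.

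Among 21 Fc and pattern receptors, Fcer1g, the shared Fc receptor γ chain, stood at 3391 and 3968 CPM in all cells, Sirpa, which reads CD47, at 887 and 542, Treml4 at 616 and 336.6, and Clec7a, the β-glucan receptor dectin-1, at 583 and 333.6. Clec4n, dectin-2, was lower than in Mac II and Mac IV, at 54.7 and 63.9 CPM against 1004 and 1037 and against 1277 and 742 (log2 changes -4.06 ± 0.38 and -3.98 ± 0.38, adjusted p = 0.00158 and 0.00136), and these calls held without each library in turn. Trem3 was higher than in Mac II, and Fcgr4, Trem1 and Trem3 were higher than in Mac IV. Fcgr1, Tlr7 and Trem2 were higher and Clec4d and Trem1 lower than in neutrophils. Of these, the calls of Clec4n and Fcgr1 alone held without each library (the others up to 0.225), and those of Tlr7, Trem2 and Trem1 against neutrophils were lost with the replicate block (0.0560, 0.0511 and 0.0628). The medians were 0.03, 0.46 and -0.07.

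Of 14 phagocytic and scavenger receptors, 13 were tested. Lrp1, a large endocytic receptor, stood at 441 and 448 CPM in Mac V against 20.3 and 16.6 in neutrophils (log2 change 4.14 ± 0.37, adjusted p = 0.00102), and Axl, which binds dying cells through GAS6, and Clec10a were also higher there, all holding without each library in turn (median 4.14, or 4.20 with bounds). Axl was lower than in Mac II, at 48.8 and 81.98 CPM against 1087 and 1189 (log2 change -4.08 ± 0.37, adjusted p = 0.00143), and so were Mrc1, the mannose receptor, and Olr1, while Clec10a was higher (median -1.89). Mrc1 (-9.44 ± 1.22, adjusted p = 0.00606) and Timd4 were lower than in Mac IV (median -1.94). Axl against Mac II and Mrc1 against Mac IV held without each library in turn, and the rest were lost in at least 1 case (up to 0.0683).

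Of 36 secreted mediators, 34 were tested, and Mac V was called higher for 1 of them. Il1b, interleukin 1β, stood at 1330.2 and 576 CPM in 63.1% of cells, Thbs1, thrombospondin 1, at 882 and 1506, Ccl6 at 800.3 and 1251, and Plaur, the urokinase receptor, which can be shed, at 625 and 551. Ccl9 stood at 447 and 539 CPM against 0.0237 and 0.152 in neutrophils (log2 change 11.98 ± 0.71, adjusted p = 0.000105), a call that held without each library in turn. Il1b was lower than in neutrophils, at 7187 and 5974 CPM there (-3.23 ± 0.58, adjusted p = 0.0194), lost without the male Mac V library (0.106). Cxcl16, Gdf15, Il18 and Spp1 were lower than in Mac II, Ccl12, Ccl7, Cxcl16, Gdf15 and Spp1 lower than in Mac IV, and Gdf15 lower than in neutrophils. The medians were 0.00 (-0.10 with bounds), -2.20 (-2.25) and 0.00 (-0.72). Osteopontin, encoded by Spp1, stood at 1.15 and 1.499 CPM in Mac V against 499 and 580 in Mac II (-8.63 ± 0.90, adjusted p = 0.00289), which held without each library in turn. Gdf15 and Il18 against Mac II, Spp1 against Mac IV and Gdf15 against neutrophils were lost in at least 1 case (up to 0.174), and Gdf15 and Il18 against Mac II with the replicate block (0.0507 and 0.0512). No cell had Il10, Ccl5, Ccl17, Ccl22, Cxcl1 or Cxcl9, and a count of 0 cells allows a share of up to 2.70%.

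Of 22 immediate early genes, Fos stood at 4357 and 4753 CPM, Nr4a1 at 2051 and 1208, Btg2 at 1672 and 1596 and Dusp1 at 1842 and 1044. Ier2 and Klf2 were higher than in Mac II, Fosl2, Klf4 and Nr4a1 higher and Ier3 and Jun lower than in Mac IV, and Klf4 and Nr4a2 higher and Fosb, Fosl2, Ier3, Jun and Junb lower than in neutrophils (medians 1.01, 0.58 and -1.21). Klf2 apart, these calls were lost in at least 1 case (up to 0.226). Those of Ier2 against Mac II, Nr4a1 against Mac IV and Ier3 against neutrophils were also lost with the replicate block (0.0608, 0.0536 and 0.0614). Genes of this group also respond to the handling of cells, and their part in these differences was not tested.

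MHC class II genes were low in Mac V. H2-DMa stood at 243.9 and 501 CPM and Cd74, the invariant chain, at 68.7 and 170.6, while H2-Ab1 stood at 0.0239 and 0.0217 and H2-Aa at 0.0239 and 12.5. Of 10 listed 9 were tested, and none was called against Mac II or Mac IV (medians -3.20 and -3.46), and H2-DMa alone was higher than in neutrophils (7.61 ± 1.46, adjusted p = 0.0246, lost without either Mac V library at 0.0558 and 0.0780), where 98.7% of its reads lay in 1 cell.

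Among 12 genes of leukotriene and prostaglandin synthesis, Alox5ap, which presents arachidonate to 5-lipoxygenase, stood at 1568 and 2176.3 CPM in 98.2% of cells, while Alox5, the lipoxygenase, stood at 24.4 and 17.2 in 11.7%. Alox5ap was 1.97 ± 0.28 higher on the log2 scale than in Mac IV (adjusted p = 0.00939). Alox5 was lower than in Mac II (-2.84 ± 0.51, 0.0360) and in neutrophils (-4.65 ± 0.55, 0.00351). Ltc4s, which makes leukotriene C4, was lower in all 3 comparisons (lost with the replicate block against Mac II at 0.0732 and neutrophils at 0.0905). Pla2g7, which breaks down platelet-activating factor, stood at 1063 and 677 CPM against 25.2 and 8.38 in Mac II (5.75 ± 0.64, adjusted p = 0.00371). Pla2g7 and Alox5 against neutrophils held without each library in turn, and the others did not (up to 0.224). The medians were -1.98 (-1.57 with bounds), -1.71 and -1.26 (-0.71).

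The lists with the fewest calls can be given briefly. Of 25 genes of glycolysis and oxygen sensing, Aldoa stood at 912 and 755 CPM, Pkm at 856 and 811, Ldha at 619 and 494 and Eno3 at 413 and 348.8. Eno3 alone was higher than in Mac II, and Slc2a3, a glucose transporter, was lower than in Mac IV and in neutrophils (-10.46 ± 0.85, adjusted p = 0.000556 in the latter). The survival genes had Mcl1 highest, at 553 and 495 CPM, and its lower level than in neutrophils (-1.59 ± 0.37, adjusted p = 0.0477) was the only call among 11. Of 11 matrix enzymes and inhibitors, Mmp19 was lower than in Mac II, Mmp8 higher than in Mac IV, and Adam8, Mmp25, Mmp8 and Mmp9 lower and Mmp19 higher than in neutrophils, and Adam17 and Mmp8, the highest by level, stood at 132.1 and 92.1 and at 53.7 and 47.3 CPM. The calls of Slc2a3, Mmp8, Mmp19 and Mmp25 against neutrophils held without each library in turn, the others of this paragraph did not (up to 0.222), and Eno3 is the one lost with the replicate block.

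**Figure D5:**
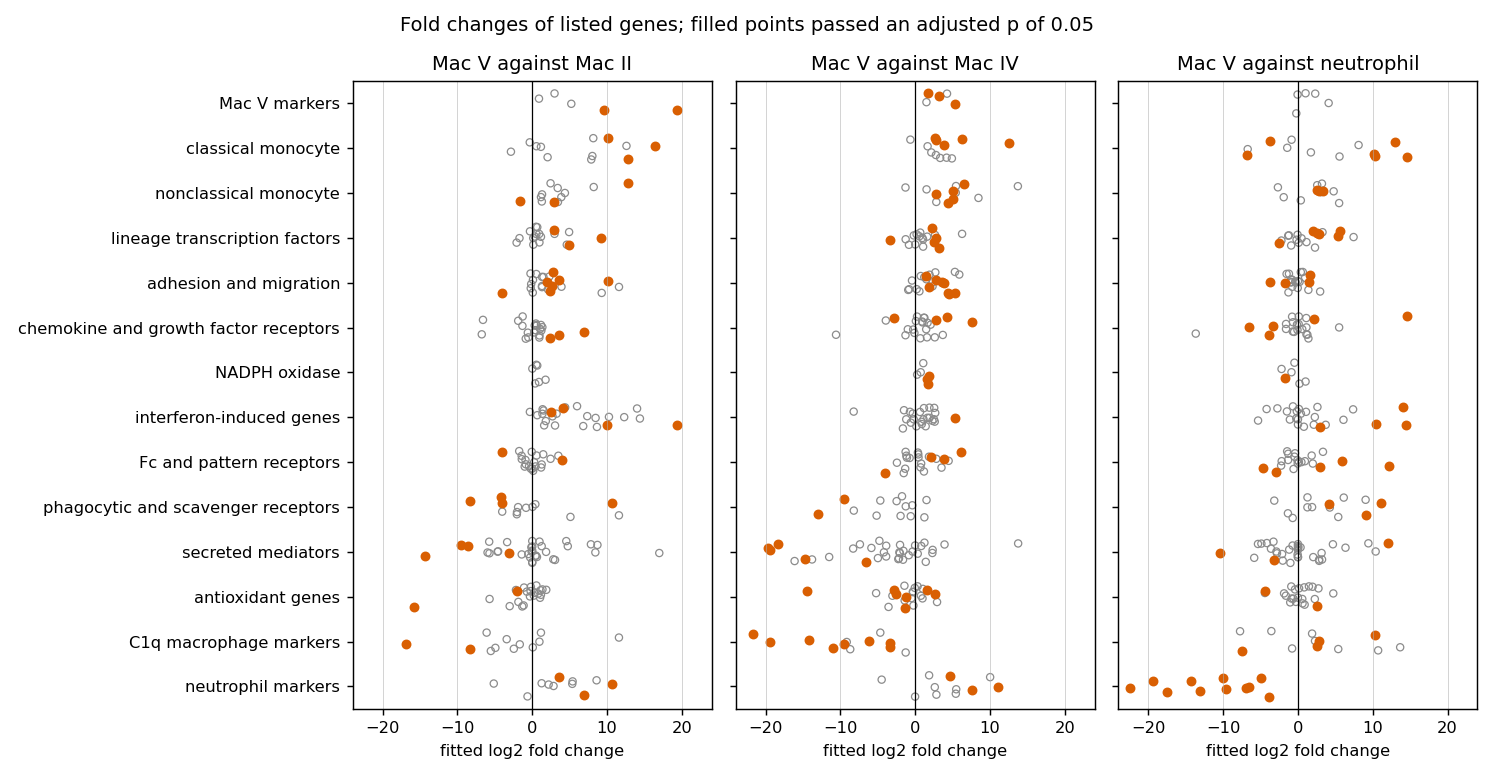
Fitted log2 fold changes of listed genes, Mac V minus the other subtype, for 14 lists and 3 comparisons, each point 1 gene and filled orange points those called at an adjusted p under 0.05 by edgeR. C1q macrophage markers lie far to the left against Mac IV and neutrophil markers far to the left against neutrophils, while adhesion genes lie mostly to the right against Mac II and Mac IV; values of genes with no read in 1 subtype are fitted and are no bound.

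Markers of the other cells that a CD45 gate could hold were followed in the same cells. Neutrophil markers summed to 792 and 1153 CPM in Mac V against 129037 and 146711 in neutrophils, and C1q macrophage markers to 2232 and 2124 CPM against 41949 and 56261 in Mac IV. Alveolar macrophage markers summed to 103.1 and 84.6 CPM against 7633 and 6856 in Mac III. Dendritic cell markers summed to 44.5 and 2.17 CPM, lymphocyte markers to 61.97 and 84.1, mast cell and basophil markers to 3.12 and 10.4, platelet and red cell markers to 0.155 and 11.4 and lung structural markers to 23.7 and 32.5. Members of these lists with no read in any Mac V cell included C1qa, Ltf, Fabp1, Krt79, Cd209a, Nkg7, Gzma, Mcpt8, Mcpt4, Kit, the β-globins and α-globins, Gp9 and Sftpa1. In all, 1 of 12 C1q, 1 of 12 neutrophil, 2 of 12 alveolar macrophage and 1 of 10 dendritic cell markers had no read. So did 3 of 12 lymphocyte, 3 of 10 mast cell and basophil, 6 of 10 platelet and red cell and 1 of 12 structural markers. The remaining members had at least 1 read.

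What remained of the C1q list was mostly Apoe, apolipoprotein E, at 1980.2 and 2004 CPM in 80.2% of cells. Apoe was lower than in Mac IV (18514 and 23784 CPM, log2 change -3.32 ± 0.45, adjusted p = 0.00771) and higher than in neutrophils (178.2 and 315.7 CPM, 2.60 ± 0.44, 0.0152), with both calls lost without either Mac V library (up to 0.0675). Of the 12 genes 8 were lower than in Mac IV, Apoe, C1qa, C1qc, Gas6, Maf, Mrc1, Ms4a7 and Pf4 (median -8.91), and those of C1qa, Gas6, Mrc1 and Ms4a7 held without each library (the others up to 0.179), and C1qc lost its call with the replicate block (0.0643). What remained of the neutrophil list was mostly S100a8, an alarmin, at 487 and 719 CPM in 38.7% of cells, with Csf3r next. S100a9, its partner, stood at 25.6 and 69.4 CPM, in 5 cells, with 46.9% of its reads in 1 cell, although S100a9 was called higher than in Mac II and Mac IV. All 11 tested of 12 neutrophil markers were lower than in neutrophils (median -9.96). The calls of S100a8, Csf3r and Stfa2l1 were lost without at least 1 library (up to 0.184), and that of Stfa2l1 also with the replicate block (0.0534). At least 2 markers at 50 CPM or more were found in 40 Mac V cells for the neutrophil list, 31 for the C1q list, 3 for lymphocytes, 2 for alveolar macrophages and none for the other 4 lists, where 0 allows up to 2.70%. Whether some of these cells held material of a second cell was not tested.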

How the data were processed

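Single cells of 2 mice were measured by plate-based RNA-seq, and the authors deposited unnormalized read counts for each gene in each cell (18072 genes, 1183 cells, 60 genes with no read). The submitters' processing notes name STAR 2.5.2b, HTSeq 0.10 and the human build GRCh38, with no role given; the gene symbols are those of mouse, and the build used for the mouse reads is not given in the sources used here. No molecular identifiers are named per the labels' protocols, so reads copied from 1 molecule count separately. Ribosomal protein (Rpl, Rps), mitochondrial (mt-) and numbered Gm symbols do not occur among the genes (0 of each). Cells were matched to the labels by title. No doublet caller was run, since each well was sorted, and no cell was left out.

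Counts were summed per animal and labelled subtype. Of 16 subtypes, 15 had at least 5 cells in each animal and gave 30 libraries (Mac I, with 1 cell, was left out). The 10 libraries of Mac II, Mac III, Mac IV, Mac V and neutrophil entered edgeR 4.0.16 (R 4.3.3) with 1 coefficient per subtype, TMM factors and filterByExpr, and its quasi-likelihood test was adjusted by Benjamini-Hochberg over 14599 genes, with calls under 0.05. Alternatives were all 15 subtypes, the 2 subtypes alone, the animal as replicate block, DESeq2 1.42.0, limma-voom 3.58.1, RLE factors, no filter, CD45 plates only, only plates whose titles carry the tag DC35, equal weight of cells, and each library left out. CPM divided by TMM factors of the 30 libraries was added after the data were seen. CPM were computed without TMM factors. Where a gene had 0 reads in 1 subtype, its fold is a lower bound against 3 reads over that whole group, and at 1 to 3 reads no fold is given. The bound treats reads as independent and leaves out the sampling of cells and animals. Shares have exact Clopper-Pearson intervals at 95%. Python 3.11.15, numpy 2.4.6, pandas 2.3.3 and scipy 1.17.1 were used. The same animals supply every subtype, so libraries are paired by animal. Across genes the correlation of the female minus male difference between subtypes was -0.04 to 0.13 over 10 pairs.

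Named genes were the 8 with the largest change in each direction among those called, with each Mac V library on the same side of each other library and at least 50 CPM in the higher subtype; the 25 first genes highest in Mac V; the markers and monocyte lists; the 4 members of each other list with the highest CPM; and the 8 genes nearest to Ly6c2 and to Ace. The members and the 26 gene lists were chosen with earlier results of these data known. Some genes that these rules name are not reported here. Shared 50-base windows were counted over GENCODE mouse transcripts and promoters were taken from RefSeq.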

Additional observations from a re-analysis of the deposited data

How the results depend on the processing

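Of the gene results tested against Mac II, Mac IV and neutrophils (52, 69 and 78 named or listed genes) none changed direction under any alternative fit, and 4, 8 and 11 also stayed called throughout. The others missed the threshold in at least 1 alternative. The share of tested genes called was 1.29%, 2.75% and 4.48%, and it differed widely between fits. With all 15 subtypes in the fit (15600 genes tested, common coefficient of variation 1.15) it was 0.115%, 0.167% and 0.404%, and 16, 25 and 59 of those genes were among the calls of the report. DESeq2 gave 13.1%, 17.7% and 24.6%, and limma-voom 3.34%, 12.2% and 7.65%. Against neutrophils the share was 0.846% with only the 2 subtypes in the fit and 2.80% with only plates whose titles carry the tag DC35. At an unadjusted p under 0.05 the counts were 2226, 3004 and 3558 genes. Leaving out 1 library gave 0.521% to 0.764% against Mac II, 0.690% to 1.09% against Mac IV and 1.46% to 13.7% against neutrophils. The 13.7% was without the male neutrophil library, where the lone neutrophil library was assumed to vary like the other groups. The cause of these differences was not tested. With the animal as replicate block, in this paired design, 1.12%, 2.60% and 3.68% were called, and 6, 6 and 13 of the gene results lost their call. RLE factors moved the median log2 change of all genes to -0.19 against Mac IV and -0.21 against neutrophils. Genes highest in Mac V were 0.577% of those with a read, and 0.888% when 20% of cells sufficed. With CPM divided by TMM factors, the log2 ratio of Mac V to the next subtype changed sign for Ifitm6 (-0.25 and -0.16) and for Nr4a1 in the male (-0.24). Cells with both Ly6c2 and Ace were 11.7% of Mac V, 5.41% at 50 CPM and 4.55% after thinning, and cells with neither were 7.21%, or 14.5% after thinning. With 2 animals, 1 of each sex, the spread between animals rests on 2 libraries per subtype.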

Other observations

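Between the 2 animals, 19 genes reaching 50 CPM in one of them differed in Mac V by 4-fold or more whichever CD45 plates of the female and male were set against each other. Xist, Ddx3y and Kdm5d, which differ by sex, were 3 of them. Of the other 16, 11 were higher in the female and 5 in the male. Among these Bhlhe40, a transcriptional repressor of immune cells, stood at 87.3 CPM in the female and 17.6 in the male, with 10 or more reads in 30.3% and 11.1% of cells. C5ar2, an alternative receptor for complement C5a, stood at 14.6 and 121.2 CPM, in 12.1% and 31.1% of cells. Vps52, of a vesicle tethering complex, stood at 115.7 and 12.1 CPM, and Hmg20b at 13.9 and 87.3. With 1 animal of each sex these values have no test, and sex and animal cannot be told apart.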
